A study of Mus musculus with 12 samples.

Results

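The 32 genes described here encode the apparatus of excitation-contraction coupling and of the calcium store in skeletal muscle. They were taken by gene symbol from the deposited count table, which lists 55416 genes, and all 32 were found in it. Of these, 29 passed the filter on low counts and were tested, among 13250 tested genes in all. The RNA came from C2C12, an established line of mouse myoblasts that stops dividing and fuses into myotubes when serum is reduced. The libraries form 4 groups of 3 replicates. Cells labelled Mapk14 knockout (Mapk14-/-, here KO-labelled) were kept for 5 days in differentiation medium (DM, 2% horse serum) or in growth medium (GM, 10% fetal bovine serum), and wild-type (WT) cells were kept for the same 5 days in DM or in GM. Mapk14 encodes p38 alpha, a stress-activated kinase with a known part in myogenic differentiation. The labels call the replicates biological but do not say how the cultures were separated, so the p-values measure the spread between these samples. The sources used here do not give the number of knockout clones or how the gene was edited.

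In skeletal muscle the action potential spreads along the sarcolemma into the transverse tubules, where the voltage-gated calcium channel Cav1.1 senses it. Cav1.1 is mechanically coupled to the ryanodine receptor of the sarcoplasmic reticulum, which then releases stored calcium to the myofilaments. Calcium is returned to the store by the SERCA pumps, is held there by buffers such as the calsequestrins, and is topped up from outside the cell by store-operated entry. In cultured myoblasts this machinery is known to be assembled as the cells become myotubes.

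The RNA of the targeted gene was not lower under the knockout label. Mapk14 averaged 89.5 ± 4.67 CPM (counts relative to the TMM-scaled library size) in KO-labelled DM libraries and 91.3 ± 2.59 CPM in WT DM libraries (SD, n = 3 each), a log2 fold change of -0.03 ± 0.08 (SE, adjusted p = 0.822). It averaged 134 ± 3.58 CPM in KO-labelled GM libraries and 124 ± 14.0 CPM in WT GM libraries (0.11 ± 0.08, adjusted p = 0.35). A gene-level count does not show whether the RNA encodes an intact protein, so the groups are named by their labels and every direction below compares libraries labelled KO with libraries labelled WT.

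Library totals ran from 8821669 to 11536396 counts, and a count of 3, taken as the limit that a count of 0 allows, was 0.26 to 0.346 CPM. Markers of muscle cells and myotubes, fixed as a list of 12, summed to 2817 to 3228 CPM in KO-labelled DM libraries, 292 to 538 CPM in KO-labelled GM libraries, 6846 to 7014 CPM in WT DM libraries and 1597 to 2289 CPM in WT GM libraries. The sum of this list ran over the groups in the same order as the sum of the genes described here. Des, Myod1, Myf5, Myf6 and Mef2c did not follow that order and averaged more in WT GM than in KO-labelled DM. The part of this list in the results was not tested. In such bulk libraries, fewer cells of a type and less RNA per cell cannot be told apart. Of the lists for other cell types, the endothelial list summed to at most 1.33 CPM, the epithelial list to at most 0.715 CPM, and the macrophage and leukocyte list to 11.2 to 20.9 CPM with Ptprc and Adgre1 at 0 in every library. The macrophage and leukocyte list was highest in KO-labelled DM, at 16.2 to 20.9 CPM, against 11.2 to 14.5 CPM in the other libraries. In KO-labelled DM and WT DM, Lyz2 was at 8.32 and 1.94 CPM, Cd68 at 1.35 and 1.20 CPM, and Csf1r at 8.15 and 9.52 CPM. The other 4 lists also differed between groups, and the part of all these lists in the results was not tested. Fibroblast markers summed to 1442 to 1560 CPM in KO-labelled DM, 690 to 999 CPM in KO-labelled GM, 1650 to 2184 CPM in WT DM and 680 to 962 CPM in WT GM, with Tcf21 at 0 in every library. The largest part was Col1a1, at 1136 CPM in KO-labelled DM and 1466.5 CPM in WT DM on average. Dcn (5.14 against 36.4 CPM) and Ly6a (159 against 242 CPM) were, like Col1a1, lower in KO-labelled DM than in WT DM. Pdgfra (77.4 against 55.0 CPM), Cd34 (131 against 80.6 CPM) and Dpt (5.21 against 3.68 CPM) were instead higher in KO-labelled DM than in WT DM. Smooth muscle markers summed to 1697 to 1907 CPM in KO-labelled and 2454 to 2987 CPM in WT libraries, mostly from Acta2, with Myh11 at most at 0.461 CPM. Cardiac markers summed to 141 to 163 CPM in KO-labelled DM, 32.6 to 36.9 CPM in KO-labelled GM, 436 to 470 CPM in WT DM and 53.5 to 79.7 CPM in WT GM. In DM these sums were mostly Myl4, at 128 CPM in KO-labelled and 421 CPM in WT libraries on average. Nkx2-5 went the other way, at 8.34 CPM in KO-labelled DM and 3.40 CPM in WT DM. Myl7 and Nppa were at 0 in every library. Neural markers summed to 6.41 to 18.6 CPM in KO-labelled and 45.1 to 55.03 CPM in WT libraries, with Sox10 at 0 in every library. Replicate 3 of the GM groups stood apart, being the highest of its group for 23 of the 29 tested genes in KO-labelled GM (36.4% of all tested genes) and for 20 of 29 in WT GM (40.4%). Counts are therefore also given without these 2 libraries.

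KO-labelled cells carried less RNA than WT cells for most of the apparatus in DM. Of the 29 tested genes 19 were lower in KO-labelled DM, 1 was higher (Trdn) and 9 passed in neither direction at an adjusted p of 0.05. Among all tested genes 17.4% were called lower and 13.6% higher in this comparison. The median log2 fold change of the 29 genes was -0.58, against -0.02 for all tested genes. For 21 of the 29 every KO-labelled DM library was below every WT DM library, and for 1 every one was above, against 26.2% and 21.3% of all tested genes. The summed level of all 32 genes was 2608 ± 44.9 CPM in KO-labelled DM and 4178 ± 72.3 CPM in WT DM. With both replicate 3 GM libraries left out, 21 genes were lower and 1 was higher.

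KO-labelled cells also carried less RNA of most of these genes in GM, that is without the change of medium. Here 18 genes were lower in KO-labelled GM and 2 were higher (Trdn and Asph), against 10.6% lower and 10% higher among all tested genes. The median log2 fold change was -0.68, against -0.00 for all tested genes. Libraries did not overlap for 17 lower and 4 higher genes, against 16.5% and 15.8% of all tested genes. The summed level was 1340 ± 90.7 CPM in KO-labelled GM and 1826 ± 158 CPM in WT GM. Leaving out both replicate 3 libraries gave the same counts of 18 lower and 2 higher genes.

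Both kinds of cell raised most of the apparatus in DM. In KO-labelled cells 24 of the 29 genes rose in DM and 2 fell (Asph and Clcn1), against 20.8% and 19.8% of all tested genes. In WT cells 24 rose, against 18.4% of all tested genes. None fell in WT cells by edgeR's quasi-likelihood test, by DESeq2 or by limma-voom, while 14.8% of all tested genes did, and 2 were lower at an unadjusted p below 0.05. The median log2 fold change was 1.52 in KO-labelled cells and 1.48 in WT cells, against -0.00 and -0.01 for all tested genes. Orai1 passed in WT cells and not in KO-labelled cells, and Speg in KO-labelled cells and not in WT cells, but neither difference of responses passed (adjusted p = 0.258 for Orai1 and 0.536 for Speg). Without both replicate 3 libraries the counts were 24 risers and 3 fallers in KO-labelled cells, and 24 risers and 1 faller (Clcn1) in WT cells. The groups ran in the order WT DM, KO-labelled DM, WT GM, KO-labelled GM from highest to lowest for 18 of the 29 genes. WT DM had the highest mean for 21 of the 29 genes, against 25% of all tested genes, and KO-labelled GM the lowest for 23, against 24.8%.

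**Figure D1:**
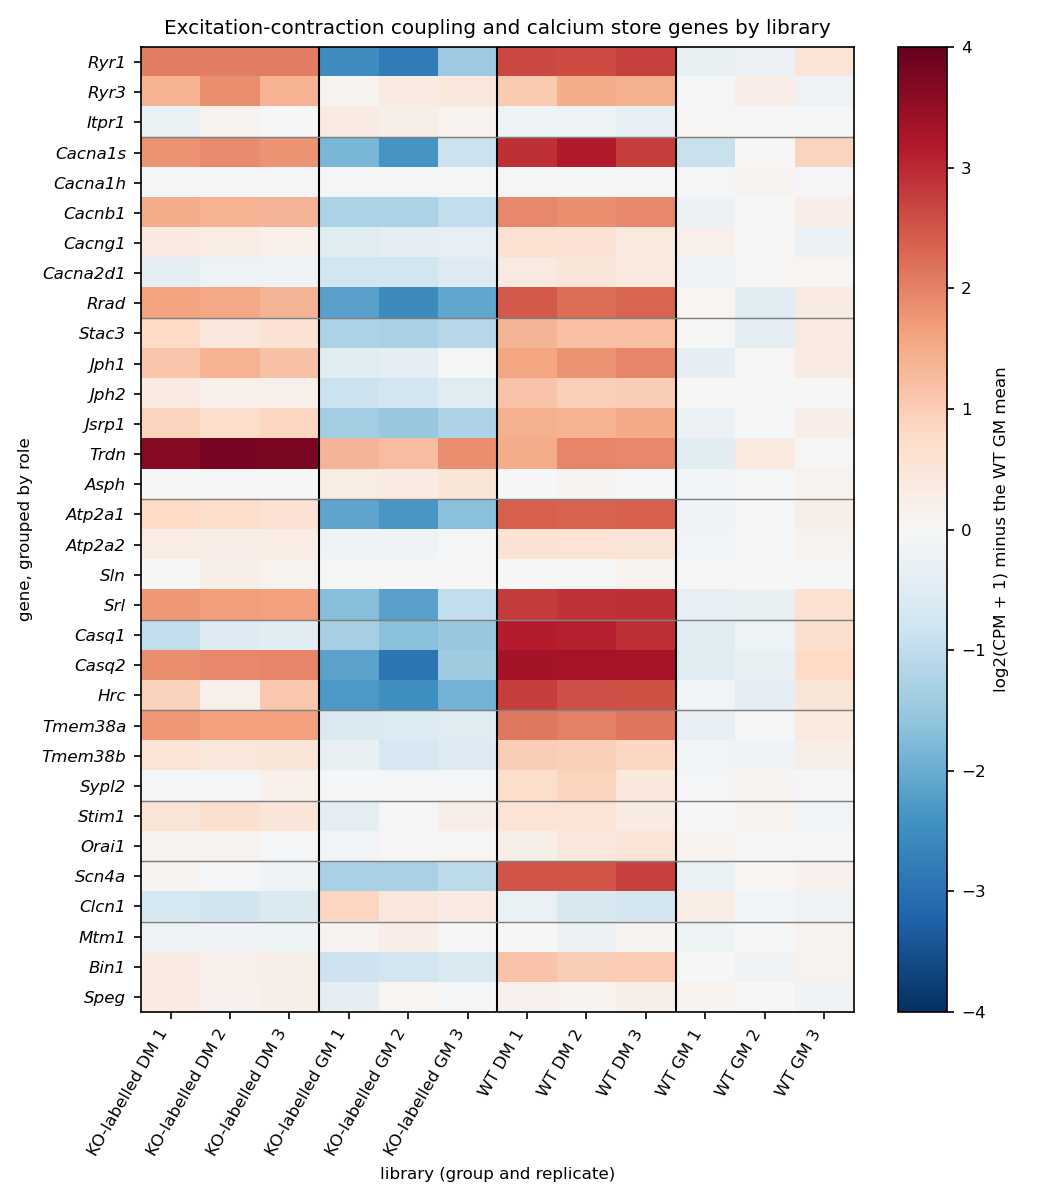
Level of each of the 32 genes in each of the 12 libraries. Rows are genes grouped by role, columns are libraries, and colour is log2(CPM + 1) minus the mean of the 3 WT GM libraries. Most rows are reddest in WT DM and bluest in KO-labelled GM, and the Trdn row is darkest red in KO-labelled DM, at 23.0 to 25.8 CPM.

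**Figure D2:**
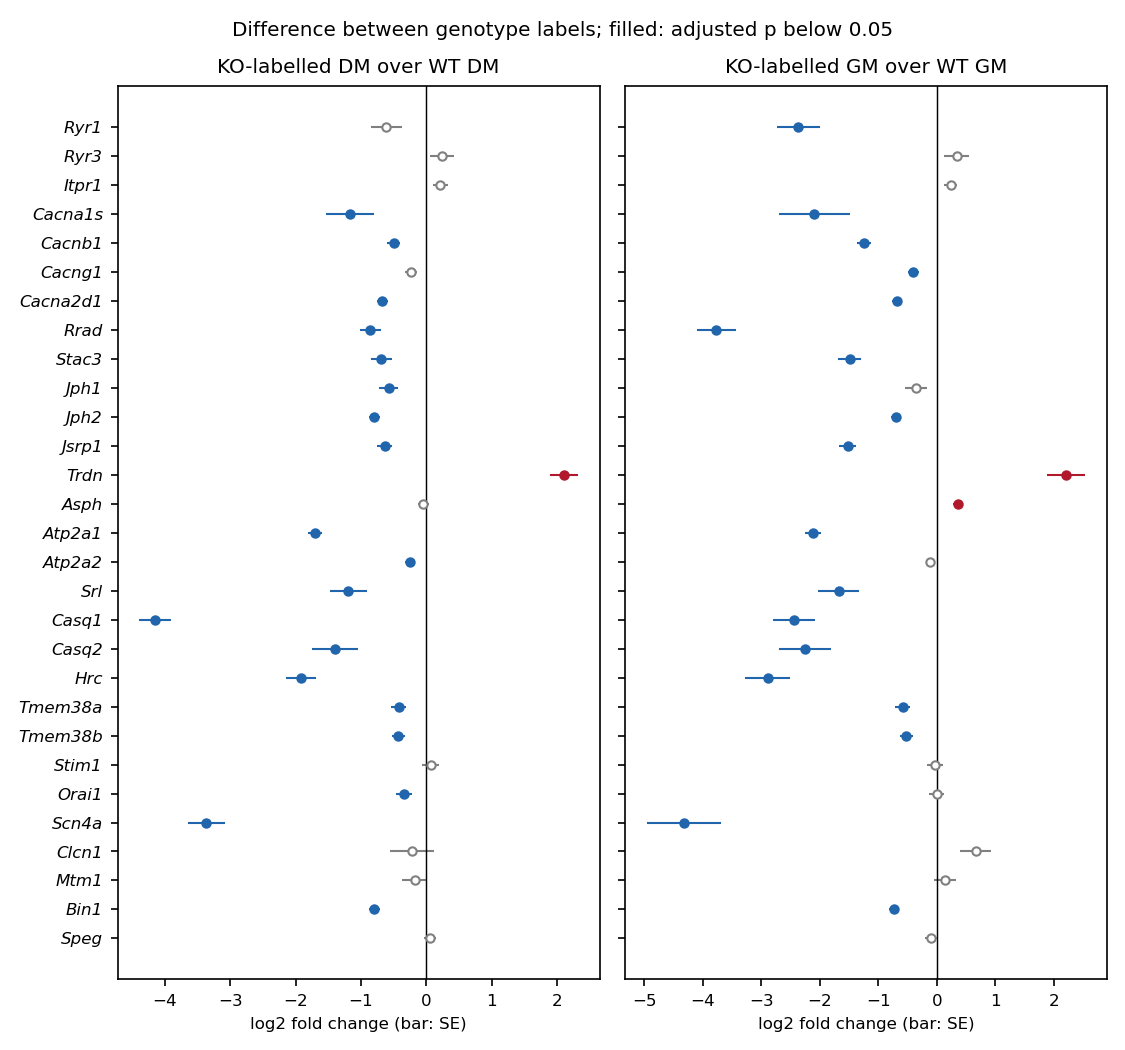
Log2 fold change of KO-labelled over WT libraries in DM (left) and in GM (right) for the 29 tested genes, with bars of 1 SE. Filled points passed an adjusted p of 0.05. In DM 19 filled points lie below 0 and 1 above (Trdn), and in GM 18 lie below and 2 above (Trdn and Asph).

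Of the 32 genes, 17 had an entry in RefSeq's table of promoters (build GRCm38.p6), with 24 promoters in all. The 250 bases before the transcript start are printed for 6 of them. Casq1 had the largest genotype difference in DM, Casq2 is its paralog, Ryr1 and Cacna1s encode the release channel and its voltage sensor, Atp2a1 encodes the muscle pump, and Clcn1 is the channel gene that fell in KO-labelled cells in DM. Capitals mark matches on either strand to CANNTG (the E-box that myogenic regulatory factors bind) and to the MEF2 motif.
Casq1: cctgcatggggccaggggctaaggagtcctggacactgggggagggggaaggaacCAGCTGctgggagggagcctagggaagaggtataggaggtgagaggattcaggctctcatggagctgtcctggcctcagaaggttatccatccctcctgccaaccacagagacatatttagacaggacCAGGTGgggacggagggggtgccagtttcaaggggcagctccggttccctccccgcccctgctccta
Casq2: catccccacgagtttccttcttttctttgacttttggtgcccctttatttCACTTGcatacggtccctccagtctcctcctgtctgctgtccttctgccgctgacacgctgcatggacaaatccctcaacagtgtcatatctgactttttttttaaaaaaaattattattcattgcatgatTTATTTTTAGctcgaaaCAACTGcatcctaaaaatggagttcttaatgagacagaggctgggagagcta
Ryr1: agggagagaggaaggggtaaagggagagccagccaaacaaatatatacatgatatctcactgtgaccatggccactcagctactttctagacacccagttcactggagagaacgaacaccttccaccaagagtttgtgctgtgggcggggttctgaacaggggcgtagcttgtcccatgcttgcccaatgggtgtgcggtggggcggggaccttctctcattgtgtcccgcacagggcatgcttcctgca
Cacna1s: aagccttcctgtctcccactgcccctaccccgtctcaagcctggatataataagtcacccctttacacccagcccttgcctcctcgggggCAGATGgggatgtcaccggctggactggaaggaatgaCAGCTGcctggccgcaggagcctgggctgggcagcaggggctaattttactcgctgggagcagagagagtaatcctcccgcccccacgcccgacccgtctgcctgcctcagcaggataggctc
Atp2a1: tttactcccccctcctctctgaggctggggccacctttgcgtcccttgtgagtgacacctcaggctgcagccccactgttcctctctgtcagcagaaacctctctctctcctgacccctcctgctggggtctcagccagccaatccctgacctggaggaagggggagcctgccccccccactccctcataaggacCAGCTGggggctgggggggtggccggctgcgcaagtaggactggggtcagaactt
Clcn1: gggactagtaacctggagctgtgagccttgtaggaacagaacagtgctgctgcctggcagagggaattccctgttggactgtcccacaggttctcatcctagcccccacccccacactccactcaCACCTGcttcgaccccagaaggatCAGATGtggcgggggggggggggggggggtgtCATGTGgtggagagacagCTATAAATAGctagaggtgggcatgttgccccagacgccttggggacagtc
The Ensembl identifiers of these genes are ENSMUSG00000007122 (Casq1), ENSMUSG00000027861 (Casq2), ENSMUSG00000030592 (Ryr1), ENSMUSG00000026407 (Cacna1s), ENSMUSG00000030730 (Atp2a1) and ENSMUSG00000029862 (Clcn1). The windows lie at chr1:172219896-172220145 on the minus strand for Casq1, chr3:102086165-102086414 on the plus strand for Casq2, chr7:29125152-29125401 on the minus strand for Ryr1, chr1:136052561-136052810 on the plus strand for Cacna1s, chr7:126463074-126463323 on the minus strand for Atp2a1 and chr6:42286435-42286684 on the plus strand for Clcn1. The Casq1 window holds CAGCTG and CAGGTG and no MEF2 match, while the Casq2 window holds 2 CANNTG matches and 1 MEF2 match, 60 to 69 bases before the start. The Clcn1 window holds 3 CANNTG matches and 1 MEF2 match, and the Ryr1 window holds no match to any motif searched. Both strands were searched for 5 motifs. They were the general E-box CANNTG, its form CAGCTG, which therefore overlaps it, the MCAT element CATTCC, and the MEF2 and CArG box motifs by their usual definitions. CANNTG was present in 19 of the 24 promoters (79.2%), against 66.2% of the 32851 promoters in the table, and CAGCTG in 10 of 24 (41.7%), against 13%. MEF2 was present in 3 of 24 (12.5%), against 2.92%. CATTCC was in 4 of 24, against 12.6% of all promoters, and the CArG box in none, against 1.47%. Some of the 24 windows overlap, such as those of Jph2, so they are not independent. Counted by gene, CANNTG was in 13 of the 17, CAGCTG in 8, MEF2 in 3 and CATTCC in 3. A match describes the letters of the window and is not a measured binding site.

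Among the 3 release channels of the store, Ryr1 was the one that passed a comparison of the genotype labels. It encodes the skeletal ryanodine receptor through which the store empties. Ryr1 was at 108, 108 and 108 CPM in KO-labelled DM and at 162, 160 and 174 CPM in WT DM. Its GM levels were 3.65, 2.77 and 8.60 CPM in KO-labelled libraries and 20.6, 21.5 and 36.2 CPM in WT libraries. The KO-labelled libraries were below the WT libraries in both media, without overlap. The difference passed in GM (-2.37 ± 0.36, 5.16-fold lower, adjusted p = 0.00181) but not in DM (-0.61 ± 0.24, adjusted p = 0.0904). In DM it did pass in a fit without KO-labelled GM replicate 3 (adjusted p = 0.00784) or without WT GM replicate 3 (adjusted p = 0.0327), and in a fit of the 6 DM libraries alone (-0.59, adjusted p = 1.82e-09). Ryr1 rose in DM in both kinds of cell, by 4.41 ± 0.33 in KO-labelled cells and by 2.66 ± 0.27 in WT cells, and without KO-labelled GM replicate 3 these GM-based values became 5.09 for the rise in KO-labelled cells and -3.04 for the genotype difference in GM.

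Ryr3, the ryanodine receptor isoform of developing muscle, also rose in DM, by 1.4 in KO-labelled cells and by 1.5 in WT cells. It was at 15.0 ± 3.09 CPM in KO-labelled DM and 12.7 ± 2.05 CPM in WT DM, and neither genotype comparison passed (adjusted p = 0.347 in DM and 0.312 in GM). Itpr1, the inositol trisphosphate receptor that releases calcium in many cell types, did not pass in any of the 5 comparisons. It was at 22.0, 28.9 and 26.8 CPM in KO-labelled DM, 33.4, 30.9 and 29.3 CPM in KO-labelled GM, 23.5, 22.9 and 20.8 CPM in WT DM, and 27.6, 26.1 and 25.6 CPM in WT GM. Its whole range over the 12 libraries was thus narrow beside that of Ryr1. Per kilobase of exon, Ryr1 made up 77.8 ± 2.46% of the sum of Ryr1 and Itpr1 in KO-labelled DM, 11.7 ± 7.01% in KO-labelled GM, 86.1 ± 1.28% in WT DM and 44.6 ± 8.54% in WT GM. Itpr1 passed as higher in KO-labelled DM without KO-labelled DM replicate 1 (0.34, adjusted p = 0.0349), and as a fall in DM in KO-labelled cells without KO-labelled DM replicate 2 (adjusted p = 0.0427) or KO-labelled GM replicate 3 (adjusted p = 0.0494).

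Most genes of the voltage-gated calcium channel were lower in KO-labelled cells. The 5 tested were 4 subunits and the channel's inhibitor Rrad, of which 4 (all but Cacng1) were lower in DM and 5 in GM, and all 5 rose in DM in both kinds of cell. Cacna1s, the pore-forming and voltage-sensing subunit, was at 32.7, 34.9 and 32.3 CPM in KO-labelled DM and at 72.6, 86.2 and 65.1 CPM in WT DM. It was at 1.72, 0.867 and 4.35 CPM in KO-labelled GM and at 4.22, 8.70 and 16.9 CPM in WT GM. The DM groups did not overlap, whereas KO-labelled GM replicate 3 was above WT GM replicate 1. Both genotype differences were near the threshold (-1.16 ± 0.37, adjusted p = 0.0419 in DM, and -2.09 ± 0.61, adjusted p = 0.0444 in GM). The call was kept in 11 of 22 alternatives in DM and in 9 of 22 in GM. In DM the call was lost without any 1 of the 6 DM libraries, without KO-labelled GM replicate 1 or without WT GM replicate 2 (adjusted p 0.0557 to 0.135), and also with DESeq2 (0.111), with no filter on low counts (0.0733) and with a replicate block (0.0536). In GM it was lost with no filter on low counts (0.0694) and with a replicate block (0.0699), as well as without any 1 library other than KO-labelled GM replicate 3 and WT GM replicate 1 (adjusted p 0.0594 to 0.13), and the value was -2.99 without KO-labelled GM replicate 3 and -1.46 without WT GM replicate 3. Its rise in DM was 3.83 ± 0.53 in KO-labelled cells (4.73 without KO-labelled GM replicate 3) and 2.90 ± 0.42 in WT cells (3.53 without WT GM replicate 3).

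The auxiliary subunits surround the pore and were also lower in KO-labelled cells, in 1 or both media. Cacnb1, the beta subunit that carries Cav1.1 to the membrane, was at 78.6, 73.6 and 73.0 CPM in KO-labelled DM and at 108, 104 and 107 CPM in WT DM (-0.50, adjusted p = 0.000337). In GM it was at 11.0, 10.9 and 13.4 CPM in KO-labelled libraries and at 23.1, 27.4 and 33.3 CPM in WT libraries (-1.25, adjusted p = 9.19e-08). Neither pair of groups overlapped. Cacna2d1, the extracellular alpha2-delta subunit, was at 92.0, 104 and 105 CPM in KO-labelled DM and at 155, 168 and 158 CPM in WT DM. It was at 71.2, 71.2 and 83.1 CPM in KO-labelled GM and at 110, 124 and 128 CPM in WT GM. Again no groups overlapped, and the difference was -0.68 in both media (adjusted p = 1.14e-06 in DM and 2.34e-06 in GM). Cacng1, the gamma subunit of the muscle channel, was lower in KO-labelled GM (-0.40, adjusted p = 0.00428), and in DM it was at 121 ± 7.15 CPM in KO-labelled libraries and 143 ± 12.3 CPM in WT libraries (-0.24, adjusted p = 0.0551). Without WT DM replicate 3 or WT GM replicate 3 the DM difference of Cacng1 passed (adjusted p = 0.0382 and 0.023).

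Rrad had the largest rise in DM of all tested genes in the apparatus in KO-labelled cells. It encodes a small GTPase that binds beta subunits and inhibits voltage-gated calcium channels. Rrad was at 19.9, 19.3 and 16.8 CPM in KO-labelled DM and at 0.537, 0.173 and 0.621 CPM in KO-labelled GM. In WT cells it was at 36.4, 31.5 and 33.5 CPM in DM and at 6.27, 4.08 and 7.88 CPM in GM. No 2 of the 4 groups overlapped. The rise was 5.38 ± 0.28 in KO-labelled cells and 2.46 ± 0.18 in WT cells, and the genotype difference was -0.86 ± 0.16 in DM (adjusted p = 0.000208) and -3.77 ± 0.33 in GM (13.6-fold lower, adjusted p = 2.03e-08). KO-labelled GM held only 14 Rrad counts in all, so the sizes that rest on that group are uncertain. Over the alternatives the rise in KO-labelled cells ran from 4.98 to 5.76 and the GM difference from -4.14 to -3.37. Cacna1h, a T-type channel of immature muscle, had 1 count in all 12 libraries and was not tested.

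Of the 6 genes of coupling adaptors and the triad junction, 4 were lower and Trdn was higher in KO-labelled DM. In KO-labelled GM 3 of them were lower and Trdn and Asph were higher. Stac3, the adaptor that Cav1.1 needs for coupling, was at 16.8, 12.7 and 14.5 CPM in KO-labelled DM and at 25.2, 22.9 and 22.8 CPM in WT DM (-0.69, adjusted p = 0.00188). It was at 3.33, 3.21 and 3.64 CPM in KO-labelled GM and at 9.26, 7.09 and 12.3 CPM in WT GM (-1.49, adjusted p = 9.11e-06). The groups did not overlap in either medium. Jph2, a junctophilin that bridges the tubule and store membranes, was at 207, 189 and 191 CPM in KO-labelled DM and at 367, 324 and 327 CPM in WT DM (-0.79, adjusted p = 1.9e-07). The GM values were 90.4, 99.1 and 119 CPM in KO-labelled libraries and 168, 163 and 167 CPM in WT libraries (-0.69, adjusted p = 3.18e-06). The DM level of Jph2 in KO-labelled cells was thus above its WT GM level. Its paralog Jph1 was lower in KO-labelled DM (24.9 ± 2.67 CPM, against 37.2 ± 4.69 CPM in WT DM, adjusted p = 0.00507), and in GM it was at 7.996 ± 1.41 CPM in KO-labelled and 10.3 ± 2.79 CPM in WT libraries (-0.36, adjusted p = 0.195, and -0.55 with adjusted p = 0.0354 without WT GM replicate 1). Jsrp1, a store membrane protein that binds Cav1.1 and calsequestrin, was lower in KO-labelled cells in both media (-0.63 in DM, adjusted p = 0.000177, and -1.53 in GM, adjusted p = 7.38e-08).

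Trdn encodes triadin, which anchors calsequestrin to the ryanodine receptor, and was higher in KO-labelled cells. It was at 23.0, 25.8 and 25.1 CPM in KO-labelled DM and at 4.38, 6.44 and 6.29 CPM in WT DM. In GM it was at 3.97, 3.47 and 6.03 CPM in KO-labelled libraries and at 0.411, 1.504 and 0.998 CPM in WT libraries. Groups of the same medium did not overlap, and the KO-labelled GM range overlapped the WT DM range. The difference was 2.10 ± 0.21 in DM (4.29-fold higher, adjusted p = 7.9e-08) and 2.21 ± 0.33 in GM (4.62-fold higher, adjusted p = 2.91e-05). Trdn rose in DM by 2.45 ± 0.21 in KO-labelled cells and by 2.55 ± 0.32 in WT cells, and these rises did not pass as different (-0.11, adjusted p = 0.904). Asph, whose locus encodes the triadin partner junctin as well as an aspartyl hydroxylase, was at 100, 99.2 and 101 CPM in KO-labelled DM and at 101, 109 and 99.9 CPM in WT DM (-0.05, adjusted p = 0.705). It was at 124, 128 and 142 CPM in KO-labelled GM and at 94.0, 99.1 and 114 CPM in WT GM (0.36, adjusted p = 0.00179), and KO-labelled GM was the only group of the 4 whose libraries did not overlap those of any other. The counts join all transcripts of the locus, so junctin alone was not measured.

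**Figure D3:**
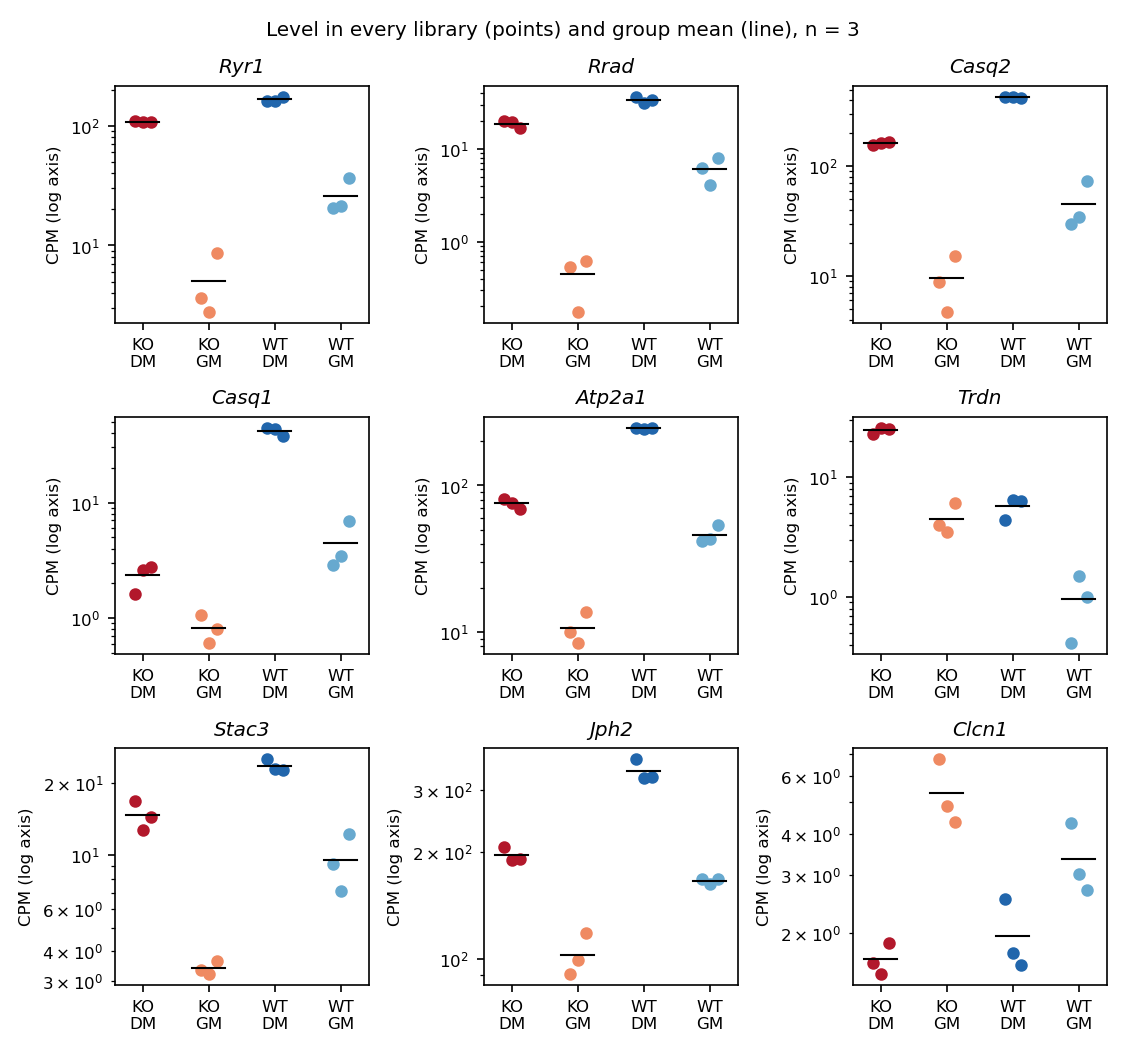
CPM of 9 genes in every library, on log axes, for KO-labelled DM, KO-labelled GM, WT DM and WT GM from left to right (KO stands for KO-labelled). Points are libraries and lines are group means of 3. Rrad, Ryr1 and Casq2 are lowest in KO-labelled GM, Casq1 is at 1.62 to 2.79 CPM in KO-labelled DM against 37.9 to 44.4 CPM in WT DM, Trdn is highest in KO-labelled DM, and Clcn1 is highest in KO-labelled GM.

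Of the 3 tested genes of store pumps and their regulators, 3 were lower in KO-labelled DM and 2 in KO-labelled GM. Atp2a1 encodes SERCA1, the pump of fast skeletal muscle. It was at 81.3, 75.7 and 69.1 CPM in KO-labelled DM and at 246, 242 and 247 CPM in WT DM (-1.70 ± 0.11, 3.26-fold lower, adjusted p = 1.3e-09). The GM values were 9.98, 8.41 and 13.7 CPM in KO-labelled libraries and 41.7, 43.1 and 54.1 CPM in WT libraries (-2.11 ± 0.14, 4.33-fold lower, adjusted p = 2.19e-09). The WT libraries were above the KO-labelled libraries of the same medium without overlap, and the rise in DM was 2.81 in KO-labelled cells and 2.40 in WT cells. Atp2a2, the SERCA2 pump found in slow muscle, heart and most other cells, was at 618, 612 and 620 CPM in KO-labelled DM and at 750, 734 and 722 CPM in WT DM (-0.25, adjusted p = 0.00699). It was at 463, 454 and 480 CPM in KO-labelled GM and at 473, 495 and 553 CPM in WT GM, where the groups overlapped (-0.12, adjusted p = 0.235). The DM call of Atp2a2 was lost without KO-labelled DM replicate 2 (adjusted p = 0.0506).

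Set per kilobase of exon, the balance of the SERCA genes differed between the groups. Atp2a1 made up 17.6 ± 1.20% of the pair in KO-labelled DM, 3.84 ± 0.82% in KO-labelled GM, 36.8 ± 0.55% in WT DM and 13.7 ± 0.76% in WT GM. No 2 groups overlapped, and an exact permutation test of 3 against 3 libraries cannot give a p below 0.1. Srl, which encodes the store calcium-binding protein sarcalumenin, was at 131 ± 4.74 CPM in KO-labelled DM and 299 ± 14.8 CPM in WT DM (-1.19, adjusted p = 0.012), and at 13.2 ± 5.91 CPM in KO-labelled GM and 42.1 ± 17.3 CPM in WT GM (-1.68, adjusted p = 0.00981). Sln, the small inhibitor of SERCA named sarcolipin, had 4 counts in all. It was at 0, 0.187 and 0.0929 CPM in KO-labelled DM, at 0, 0 and 0.0998 CPM in WT DM, and at 0 in all GM libraries, so that no difference was detectable at this depth.

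The calcium buffers of the store lumen were Casq1, Casq2 and Hrc, and all 3 were lower in KO-labelled cells in both media. Casq1 encodes the calsequestrin of fast skeletal muscle. It was at 1.62, 2.61 and 2.79 CPM in KO-labelled DM and at 44.4, 43.3 and 37.9 CPM in WT DM. Its GM levels were 1.07, 0.607 and 0.798 CPM in KO-labelled libraries and 2.88, 3.44 and 6.99 CPM in WT libraries. Its highest KO-labelled DM library was below its lowest WT GM library. The difference was -4.14 ± 0.24 in DM (17.7-fold lower, adjusted p = 9.99e-11) and -2.44 ± 0.36 in GM (5.43-fold lower, adjusted p = 4.38e-05). Casq1 rose in DM by 1.52 ± 0.40 in KO-labelled cells and by 3.23 ± 0.22 in WT cells.

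Casq2, the calsequestrin best known from heart and slow muscle, was the more abundant of the pair. It was at 155, 162 and 167 CPM in KO-labelled DM and at 430, 425 and 422 CPM in WT DM. In GM it was at 8.804, 4.68 and 15.3 CPM in KO-labelled libraries and at 29.7, 34.2 and 73.3 CPM in WT libraries. No groups overlapped, and the difference was -1.40 in DM (adjusted p = 0.0158) and -2.26 in GM (adjusted p = 0.00772). The DM call was lost without KO-labelled DM replicate 1 (adjusted p = 0.0604) or replicate 2 (adjusted p = 0.0579). Per kilobase of exon, Casq1 made up 1.98 ± 0.466% of the pair in KO-labelled DM, 12.3 ± 4.73% in KO-labelled GM, 12.1 ± 0.798% in WT DM and 12.04 ± 0.293% in WT GM. The share was thus lower in KO-labelled DM, at 1.45 to 2.29%, than in any library of the other groups, the nearest being 6.84% in KO-labelled GM. These shares rest on 74 Casq1 counts in all in KO-labelled DM and 26 in KO-labelled GM. Hrc, the histidine-rich calcium-binding protein of the store, was at 17.3 ± 5.41 CPM in KO-labelled DM and 65.1 ± 5.02 CPM in WT DM (-1.91, adjusted p = 5e-05), and at 1.33 ± 0.473 CPM in KO-labelled GM and 9.98 ± 3.38 CPM in WT GM (-2.89, adjusted p = 0.000209).

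**Figure D4:**
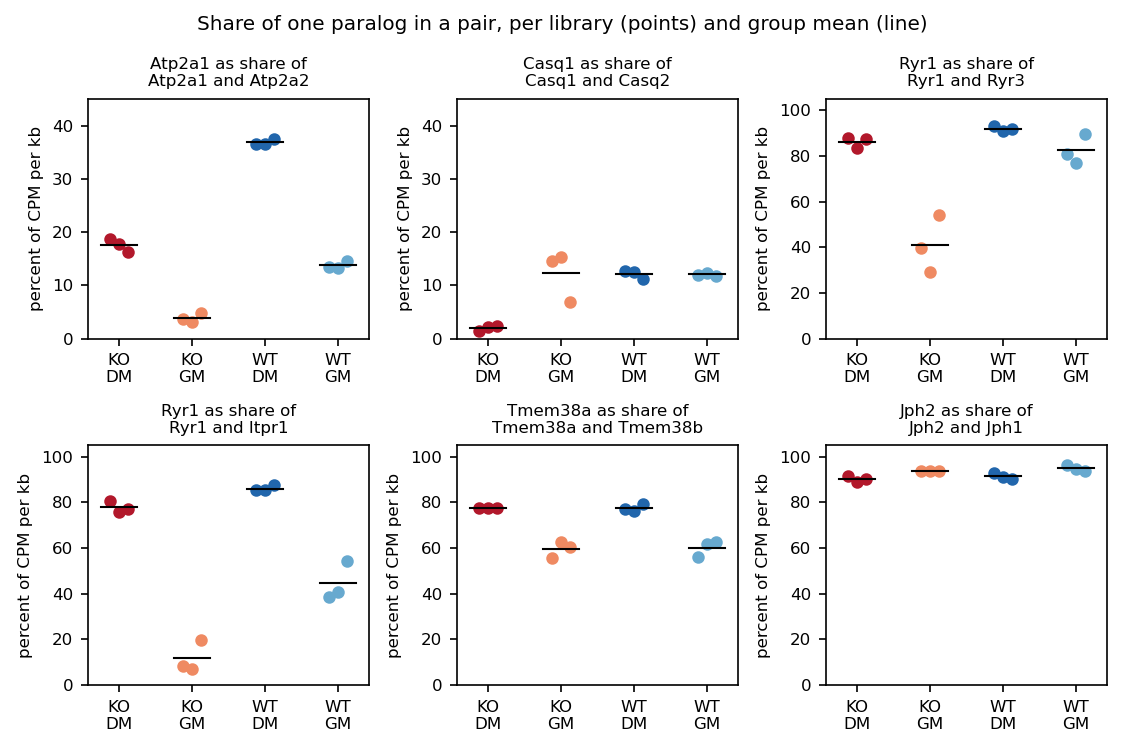
Share of the first gene in 6 pairs, as a percent of the summed CPM per kilobase of exon, in each library of the 4 groups (KO stands for KO-labelled). Points are libraries and lines are group means of 3, and the vertical axis is shorter for the SERCA and calsequestrin pairs. The Casq1 share is 1.98% on average in KO-labelled DM and 12.04 to 12.3% on average in the other groups. By library it ranges from 6.84 to 15.4% in KO-labelled GM, where Casq1 had 26 counts in all. The Tmem38a share is 77.6% in KO-labelled DM and 77.5% in WT DM.

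Both tested counter-ion channels of the store were lower in KO-labelled cells in DM and in GM. Tmem38a and Tmem38b encode the TRIC-A and TRIC-B potassium channels, which are thought to balance the charge that leaves the store with calcium. Tmem38a was at 105 ± 4.74 CPM in KO-labelled DM and 141 ± 6.83 CPM in WT DM (-0.43, adjusted p = 0.00762), and at 22.0 ± 0.57 CPM in KO-labelled GM and 33.1 ± 8.86 CPM in WT GM (-0.59, adjusted p = 0.00412). Tmem38b was at 53.9 ± 2.15 CPM in KO-labelled DM and 72.5 ± 3.99 CPM in WT DM (-0.43, adjusted p = 0.00287). The share of Tmem38a in this pair followed the medium and was 59.6 ± 3.63% in KO-labelled GM and 60.3 ± 3.49% in WT GM. Sypl2, the triad membrane protein mitsugumin 29, was not tested, with 2 counts in KO-labelled DM, 0 in KO-labelled GM, 19 in WT DM and 1 in WT GM.

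Of the genes of store-operated entry, Stim1 passed in neither genotype comparison and Orai1 in 1. Stim1, the sensor of store filling, was at 29.9, 33.1 and 29.2 CPM in KO-labelled DM, 15.7, 20.02 and 25.3 CPM in KO-labelled GM, 30.9, 30.8 and 26.5 CPM in WT DM, and 20.5, 22.8 and 19.3 CPM in WT GM. It rose in DM by 0.59 in KO-labelled cells and by 0.50 in WT cells, and neither genotype comparison passed (adjusted p = 0.755 in DM and 0.922 in GM). Orai1, the channel that Stim1 opens, was at 18.7, 18.7 and 15.9 CPM in KO-labelled DM and at 19.8, 23.2 and 24.1 CPM in WT DM. It was at 15.6, 17.2 and 17.4 CPM in KO-labelled GM and at 18.4, 15.9 and 16.0 CPM in WT GM. Orai1 was lower in KO-labelled DM (-0.34, adjusted p = 0.0408), a call lost without any 1 KO-labelled DM library, WT DM replicate 2 or 3, KO-labelled GM replicate 2, or WT GM replicate 1 or 2 (adjusted p 0.0512 to 0.197). That call was also lost with DESeq2 (adjusted p = 0.0639), with total counts alone (0.0743), with no filter on low counts (0.103) and with a filter of 1 CPM and 10 counts in 3 libraries (0.0528). Orai1 rose in DM in WT cells (0.42, adjusted p = 0.0116, but 0.0688 without WT DM replicate 3 and 0.0566 without WT GM replicate 2), and in KO-labelled cells the change was 0.08 (adjusted p = 0.634).

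The sarcolemmal channels moved in opposite directions in DM in KO-labelled cells. Scn4a, the sodium channel that carries the muscle action potential, was at 1.62, 1.31 and 1.11 CPM in KO-labelled DM and at 13.1, 13.2 and 15.5 CPM in WT DM (-3.36 ± 0.28, 10.3-fold lower, adjusted p = 3.9e-09). In GM it was at 0, 0 and 0.177 CPM in KO-labelled libraries and at 1.03, 1.61 and 1.80 CPM in WT libraries. KO-labelled DM therefore overlapped WT GM. With 2 counts in KO-labelled GM the fitted values are uncertain, and the ratio of the groups was 21.5 for KO-labelled DM over KO-labelled GM (95% counting interval 5.6 to 184) and 23.8 for WT GM over KO-labelled GM (6.2 to 203). Both fits passed (adjusted p = 1.68e-05 and 2.72e-05). Clcn1, the chloride channel that stabilizes the resting membrane, was at 1.62, 1.49 and 1.86 CPM in KO-labelled DM, 6.76, 4.85 and 4.35 CPM in KO-labelled GM, 2.53, 1.74 and 1.60 CPM in WT DM, and 4.32, 3.01 and 2.69 CPM in WT GM. It fell in DM by 1.67 ± 0.30 on the log2 scale in KO-labelled cells (adjusted p = 9.24e-05), with no overlap, and in WT cells the change was -0.78 (adjusted p = 0.057). In WT cells the fall passed without KO-labelled GM replicate 1 or 3, WT DM replicate 1 or WT GM replicate 3 (adjusted p of 0.0324 to just under 0.05).

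Of the 3 genes of tubule formation and triad maintenance, Bin1 was the only one to pass a genotype comparison. It encodes amphiphysin 2, which bends membrane into tubules, and was at 415 ± 20.4 CPM in KO-labelled DM and 720 ± 38.5 CPM in WT DM (-0.80, adjusted p = 8.94e-08), and at 211 ± 17.2 CPM in KO-labelled GM and 351 ± 33.2 CPM in WT GM (-0.73, adjusted p = 6.19e-07). Mtm1, the phosphoinositide phosphatase myotubularin, passed in none of the 5 comparisons and ranged from 5.62 to 8.41 CPM. Speg, a kinase of the triad that binds myotubularin, rose in DM in KO-labelled cells (0.34, adjusted p = 0.00726, but 0.23 and 0.0596 without KO-labelled GM replicate 1) and was at 83.9 ± 4.66 CPM in KO-labelled DM and 80.7 ± 2.06 CPM in WT DM (0.06, adjusted p = 0.703). Per kilobase of exon, Atp2a2, Bin1 and Cacng1 were the 3 most abundant of the 32 genes in KO-labelled DM, in KO-labelled GM and in WT GM, whereas in WT DM Casq2 ranked next after Bin1.

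The response to DM differed between the labels for 6 of the 29 genes. The difference of responses, KO-labelled minus WT, was above 0 for Rrad (2.91 ± 0.39, adjusted p = 6.01e-05), Ryr1 (1.75 ± 0.44, adjusted p = 0.0451), Jsrp1 (0.89 ± 0.19, adjusted p = 0.00434) and Cacnb1 (0.74 ± 0.16, adjusted p = 0.00427). It was below 0 for Casq1 (-1.70 ± 0.51, adjusted p = 0.0403) and Asph (-0.41 ± 0.11, adjusted p = 0.0236). Among all tested genes 3.61% were called above 0 and 5.25% below, or 683 above and 498 below with libraries scaled by total counts alone, against 478 and 696 with the scaling used here. The first 4 genes started lower in KO-labelled GM and rose further, ending below WT DM in CPM, while Casq1 started lower and rose less. The same KO-labelled GM libraries enter both the start and the rise, so these are not separate observations. The call of Ryr1 was lost without any 1 DM library, KO-labelled GM replicate 1 or 2, or WT GM replicate 2 (adjusted p 0.0644 to 0.118). It was also lost with no filter on low counts (adjusted p = 0.0627), and the value was 2.44 without KO-labelled GM replicate 3. Casq1 lost its call without any 1 KO-labelled library, WT DM replicate 1 or 2, or WT GM replicate 1 or 2 (adjusted p 0.053 to 0.184), and Asph without any 1 KO-labelled DM library, KO-labelled GM replicate 2, WT DM replicate 2, or WT GM replicate 1 or 2 (adjusted p 0.0505 to 0.0945). The Casq1 call was also lost without robust estimation (adjusted p = 0.0512) and that of Asph with total counts alone (0.0526). With both replicate 3 GM libraries left out, 8 genes were above 0 and 2 below, the added ones being Casq2, Srl, Atp2a1 and Cacng1. The 2 responses share no libraries. Among the 23 genes that did not pass, Stac3 was nearest to the threshold (0.81, adjusted p = 0.0539), and it passed in 8 of 21 alternatives, among them DESeq2 (0.0493), total counts alone (0.0352), no filter (0.0214) and a replicate block (0.0391). The largest value among them was that of Hrc (0.98, adjusted p = 0.245, but 0.0086 with no filter on low counts).

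**Figure D5:**
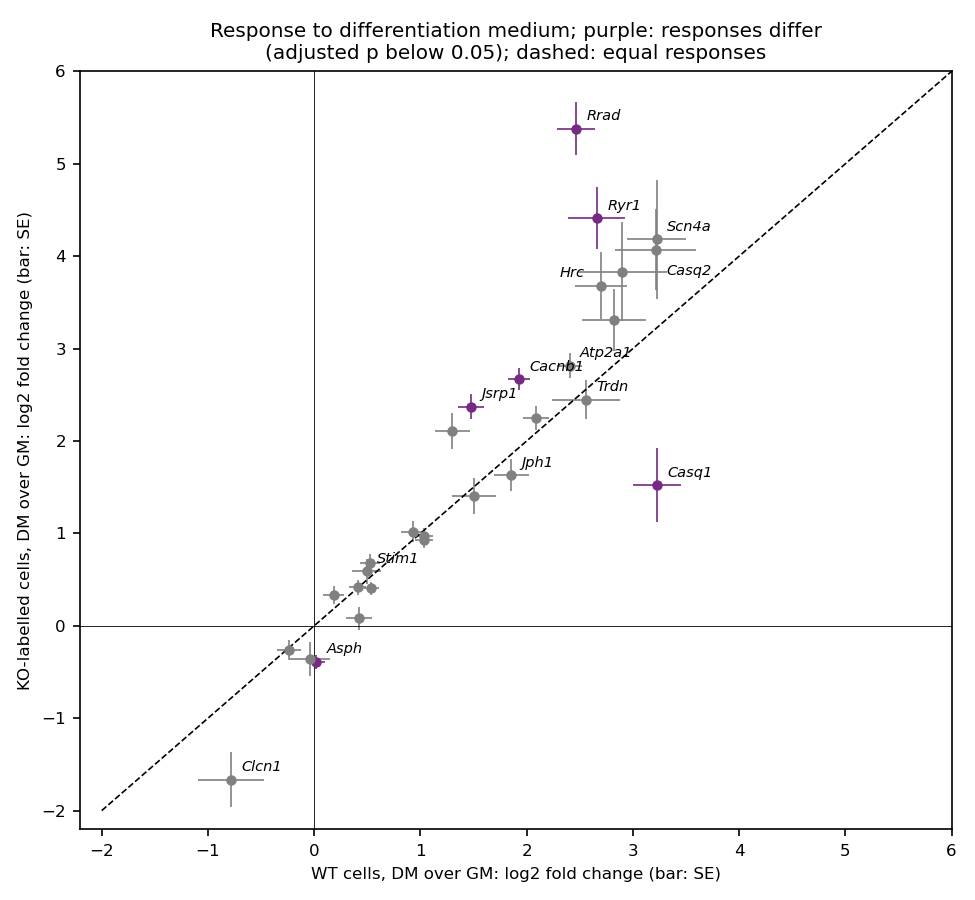
Log2 fold change of DM over GM in KO-labelled cells (vertical axis) against that in WT cells (horizontal axis) for the 29 tested genes, with bars of 1 SE. The dashed line marks equal responses and purple points those whose difference passed an adjusted p of 0.05. Rrad, Ryr1, Jsrp1 and Cacnb1 lie above the line, Casq1 and Asph below it, and Trdn near it.

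Counts over a locus can include reads of a gene on the other strand, since the sources used here do not state the strand setting of the counting. In the GENCODE M21 annotation, 763 of the 3477 exon bases of Atp2a1 overlap Rabep2 on the opposite strand, 445 of the 5428 of Clcn1 overlap Fam131b, 1309 of the 6550 of Cacna1s overlap Gm37759 and 2302 of the 16102 of Asph overlap Clvs1. Other members overlap too, among them Ryr3 with Aven (916 of 18977 bases), Rrad with Gm33023 (141 of 1577) and Casq1 with Gm17224 (156 of 1951). The part of these other overlaps in the counts was not tested. Rabep2 was at 27.3 CPM in KO-labelled DM and 32.8 CPM in WT DM, and its part in the Atp2a1 count was not tested. Fam131b fell with Clcn1 in DM, by 1.11 ± 0.08 on the log2 scale in KO-labelled cells and by 0.61 ± 0.08 in WT cells, and its part in the Clcn1 count was not tested. Gm37759 was at 2.42 CPM in KO-labelled DM and 5.88 CPM in WT DM, and Clvs1 at 19.4 CPM in KO-labelled GM and 14.8 CPM in WT GM, which moved with Cacna1s and Asph, and their part was likewise not tested.

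Other genes of calcium handling and membrane excitation were counted from 9 lists with 130 genes, of which 98 were tested. In DM 31 of the 98 were lower in KO-labelled cells and 13 were higher, against 17.4% and 13.6% of all tested genes, with a median of -0.09. The higher genes were thus near the share among all genes. In GM 21 were lower and 13 higher, against 10.6% and 10% of all tested genes, with a median of -0.07. The higher count in DM was 20 without WT GM replicate 3. In DM against GM, 33 rose and 15 fell in KO-labelled cells, against 20.8% and 19.8% of all tested genes, and 38 rose and 10 fell in WT cells, against 18.4% and 14.8%.

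Most triad and tubule proteins that passed were lower in KO-labelled cells and rose in DM. Of 15 tested, 7 were lower and 1 was higher in KO-labelled DM (17.4% and 13.6% among all tested genes), and 8 rose in DM in KO-labelled cells and 8 in WT cells (20.8% and 18.4%). Dysf, the membrane repair protein dysferlin, was at 27.0 ± 1.11 CPM in KO-labelled DM and 79.5 ± 2.34 CPM in WT DM (-1.56 ± 0.11, adjusted p = 4.22e-10). Trim72, the repair protein mitsugumin 53, was at 60.4 ± 4.22 CPM in KO-labelled DM and 142 ± 9.25 CPM in WT DM (-1.23 ± 0.14, adjusted p = 7.57e-06). Ank1, whose muscle isoform ties the store to the sarcomere protein obscurin, was lower in KO-labelled DM by a log2 fold change of -1.33 ± 0.12. Cav3, the muscle caveolin, rose in DM by 3.78 ± 0.31 in KO-labelled cells and by 3.52 ± 0.26 in WT cells.

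The sarcolemmal channels and pumps held Ano5, the gene with the largest genotype difference of these lists in DM. Ano5, a membrane protein of the anoctamin family linked to muscular dystrophy, was at 0.223 ± 0.14 CPM in KO-labelled DM and 14.7 ± 1.02 CPM in WT DM (-5.96 ± 0.36, adjusted p = 3.11e-11). The potassium channel gene Kcnn3 was lower in KO-labelled cells in DM (-1.04 ± 0.15) and in GM (-2.02 ± 0.18). Of the 12 tested, 5 were lower and 2 higher in KO-labelled DM, where 17.4% and 13.6% of all tested genes were, so the count of higher genes was near that share.

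Other calcium channel subunits included genes that were higher in KO-labelled cells. Of 7 tested, 3 were higher in KO-labelled DM (13.6% among all tested genes), such as Cacng7, a gamma subunit known from brain, at 14.4 ± 0.695 CPM in KO-labelled DM and 3.77 ± 0.592 CPM in WT DM (1.94 ± 0.20, adjusted p = 1.55e-07). In GM Cacnb2 was at 5.72 ± 0.886 CPM in KO-labelled and 1.42 ± 1.06 CPM in WT libraries (2.01 ± 0.36, adjusted p = 0.000238). The T-type channel gene Cacna1g rose in DM by 2.04 ± 0.42 in KO-labelled cells and by 1.80 ± 0.37 in WT cells.

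General calcium-binding proteins of the endoplasmic reticulum included genes that were higher in KO-labelled cells. Of 12 tested, 3 were higher in KO-labelled DM and 3 in KO-labelled GM, against 13.6% and 10% of all tested genes, and nothing particular to the list is read from so few. In DM these were Rcn3 (351 ± 9.45 CPM in KO-labelled and 197 ± 29.2 CPM in WT libraries), Nucb1 (0.58 ± 0.07) and Sdf4 (0.26 ± 0.07), and in GM Canx, Calr and Pdia4 (0.47, 0.32 and 0.29). Calr and Canx encode the chaperones calreticulin and calnexin. Among the release regulators Camk2a, a calcium-activated kinase, was at 23.0 ± 1.69 CPM in KO-labelled DM and 43.5 ± 4.02 CPM in WT DM (-0.92 ± 0.13, adjusted p = 6.73e-06), and Itpr3 fell in DM in both kinds of cell (by 0.99 in KO-labelled and by 0.59 in WT cells).

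Of the other genes of store-operated entry, Orai2 fell in DM by 1.52 ± 0.15 on the log2 scale in KO-labelled cells and by 1.75 ± 0.15 in WT cells. Stim2 was at 43.6 ± 3.54 CPM in KO-labelled DM and 74.5 ± 5.63 CPM in WT DM (-0.77 ± 0.09, adjusted p = 7.64e-07), and Saraf, an inhibitor of this entry, was higher in KO-labelled DM (0.56 ± 0.09, adjusted p = 2.36e-05). The mitochondrial uniporter gene Mcu was lower in KO-labelled DM (29.3 ± 4.23 CPM, against 49.6 ± 1.83 CPM in WT DM, adjusted p = 7.16e-06). Of the plasma membrane pumps, Atp2b1 was lower in KO-labelled DM (-0.65 ± 0.07, adjusted p = 2.56e-07). In the calcineurin list Myoz2, a sarcomere protein that binds calcineurin, was at 7.64 ± 0.81 CPM in KO-labelled DM and 43.6 ± 5.19 CPM in WT DM (-2.51 ± 0.32, adjusted p = 0.000149), while Ppp3ca, the calcineurin catalytic subunit, was higher in KO-labelled DM (0.64 ± 0.09, adjusted p = 8.07e-06).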

How the data were processed

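The authors deposited raw counts (whole numbers, not normalized) for each Ensembl gene in 1 table of 12 libraries (total RNA, paired-end reads of 150 bp, 1 batch date). The submitters' processing notes name RSEM 1.3.3, STAR 2.7.1a, DESeq2 1.40.2, R 4.3.1 and the build GRCm39. The sources used here do not say which of them made the counts, with which strand setting or annotation. Of the table's columns 4 were empty and unused.

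These counts were tested with edgeR 4.0.16 in R 4.3.3 (filterByExpr, TMM scaling). The 13250 genes kept hold 99.9% of counts. One robust quasi-likelihood model with a mean per group was fitted to all 12 libraries, and 5 contrasts were tested 2-sided: KO-labelled against WT in DM and in GM, DM against GM in KO-labelled and in WT cells, and the difference of responses. Adjusted p is Benjamini-Hochberg over all tested genes, called below 0.05. CPM use TMM-scaled library sizes. Values are log2 fold change ± SE and mean ± SD of 3 libraries. Limits and intervals (95%) cover counting error only. Exon lengths came from GENCODE M21 (GRCm38) and promoters from RefSeq. The fit was tested on simulated data.

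All 32 genes are named. Values per library are given for 16 genes chosen by role and for the 2 largest rises and falls of each contrast whose higher group averaged 10 CPM or more. Genes of other pathway lists were named by size of change, up to 3 per list and contrast, at 5 CPM or more. The members and lists were chosen with earlier results of these data known. The labels do not pair samples by replicate number, and the main fit used no pairing. Of 18 same-number pairs of libraries, 6 correlated above 0.1, and 9 of 12 libraries correlated best with their own number. Whether a number marks a shared batch was not tested. Alternatives were 2 other scalings, DESeq2 1.42.0, limma-voom 3.58.1, 2 other filters, no robust estimation, a replicate block, the 6 libraries compared, each library left out, and both GM replicate 3 libraries left out. Some genes counted in the lists of other pathway genes are not reported here by name.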

Additional observations from a re-analysis of the deposited data

Results flagged for a closer look

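The response to differentiation medium differed between KO-labelled and WT cells, by a test of the difference itself, for 6 of the 29 tested genes. The log2 difference of responses was 2.91 for Rrad, 1.75 for Ryr1, 0.89 for Jsrp1 and 0.74 for Cacnb1, which rose further in KO-labelled cells, and -1.70 for Casq1 and -0.41 for Asph. With library totals alone as the scaling, Asph was at -0.34 (adjusted p = 0.0526). Casq1 rose by 1.52 in KO-labelled cells and by 3.23 in WT cells. Asph fell by 0.39 on the log2 scale in KO-labelled cells, and in WT cells it changed by 0.02 (adjusted p = 0.89). Rrad had only 2 counts in KO-labelled GM replicate 2, and the part of depth in its difference was not tested.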

How the results depend on the processing

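Of 150 results for single genes (29 genes and Mapk14 in 5 comparisons), 126 kept their side of the threshold under all alternatives tried. Of the results that passed in either setting, 0 changed direction, while values that passed in neither could change sign. With 1 library left out, the counts of higher and lower genes ran from 1 to 2 and 15 to 21 for KO-labelled against WT in DM, 2 to 2 and 17 to 19 in GM, 23 to 24 and 2 to 3 for DM against GM in KO-labelled cells, 23 to 24 and 0 to 1 in WT cells, and 3 to 6 and 0 to 2 for the difference of responses. The count of genes that fell in WT cells was 1 with total counts alone, with the replicate block and without both GM replicate 3 libraries, against 0. For the difference of responses, 1 gene was below 0 with total counts alone or without robust estimation, against 2, and 8 were above 0 without both GM replicate 3 libraries, against 4. The calls of Cacna1s and Casq2 and Srl in GM were lost in a fit of the 6 GM libraries (adjusted p = 0.145, 0.09 and 0.081).

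Replicate numbers marked no shared culture in the labels, and same-number libraries correlated by -0.114 to 0.217 in their deviations from group means, with 9 of 12 libraries correlating best with their own number. Fitted as a replicate block, they moved all calls from 4114 to 4494 and from 2740 to 3130 for KO-labelled against WT in DM and in GM, and from 1174 to 1587 for the difference of responses. Calls for that difference were 754 without KO-labelled DM replicate 1, 735, 741 and 1920 without KO-labelled GM replicates 1, 2 and 3, 693 without WT DM replicate 2, and 2709 without both GM replicate 3 libraries. Depth limits Cacna1h, Sln and Sypl2, with 1, 4 and 22 counts in all.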

Other observations

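Jph2 made up less of the junctophilin pair in DM than in GM, with no overlap of libraries between the media in either kind of cell. Per kilobase of exon, Jph2 made up 90.2 ± 1.29% of Jph2 and Jph1 in KO-labelled DM, 93.8 ± 0.204% in KO-labelled GM, 91.4 ± 1.45% in WT DM and 95.01 ± 1.29% in WT GM (SD, n = 3 each). In the ryanodine receptor pair, Ryr1 was at 86.3 ± 2.45% of Ryr1 and Ryr3 in KO-labelled DM, 41.1 ± 12.5% in KO-labelled GM, 91.9 ± 1.21% in WT DM and 82.5 ± 6.41% in WT GM. Among markers of muscle, Mef2c, a transcription factor of differentiating muscle, was at 1.18 ± 0.558 CPM in KO-labelled DM, 0 in KO-labelled GM, 75.1 ± 8.30 CPM in WT DM and 9.18 ± 4.73 CPM in WT GM. Des, the intermediate filament desmin, was at 343 ± 29.6 CPM in KO-labelled DM, 122 ± 21.1 CPM in KO-labelled GM, 1790 ± 28.5 CPM in WT DM and 915 ± 72.9 CPM in WT GM.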
